A study of Mus musculus with 8 samples.

Results

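The 10 genes described here encode the main inflammatory cytokines of macrophages, their antagonists and the inflammasome, and were taken by symbol from the 55376 genes of the deposited count table. They are the cytokine genes Tnf, Il1a, Il1b and Il18, the genes of the IL-1 receptor antagonist (Il1rn) and of interleukin 10 (Il10), and Nlrp3, Pycard, Casp1 and Gsdmd, which encode the parts of the NLRP3 inflammasome and its pore. All 10 were found and all 10 passed the filter on low counts. Messenger RNA was sequenced from mouse bone marrow that had been grown into macrophages with M-CSF at 50 ng/mL. Marrow came from 3 male mice of each genotype at 13 weeks of age, and RNA was collected on day 8. The groups were DNMT3A-HET (HET) with IL-6, HET control, wild type (WT) with IL-6 and WT control, with 2 libraries each, numbered 1 and 2. IL-6 was given at 10 ng/mL on day 6 and left for 2 days, and all 4 groups had M-CSF. The labels name no allele behind HET and no driver or target cell of it. Nor do they tie a library to a mouse or state whether marrow was pooled. The p-values given therefore reflect how far libraries of a group lay apart, a spread that may be technical.

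In macrophages, Toll-like receptor signals first switch on the genes of IL-1 beta, IL-1 alpha, TNF and NLRP3, a step called priming. A further signal lets NLRP3 assemble with the adaptor ASC (Pycard) and caspase-1, which cuts the precursors of IL-1 beta and IL-18 and opens gasdermin D (Gsdmd), the membrane pore of pyroptosis. IL-10 dampens this programme, and the IL-1 receptor antagonist occupies the IL-1 receptor without signalling. Transcript counts measure the genes' RNA and not the processing or release of the proteins.

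Total counts ran from 18926641 to 24881197 in 7 of the 8 libraries, and HET IL-6 number 2 was deeper, at 50137897. The 2 libraries of a group differed by a median size of 0.0897 (log2) over genes in HET IL-6, 0.106 in HET control, 0.161 in WT IL-6 and 0.183 in WT control. Dnmt3a, after which the genotype is labelled, was at 140.1 and 213 CPM (library counts scaled by TMM to a common size) in HET IL-6 numbers 1 and 2, at 166 and 248 CPM in HET control, at 175 and 183 CPM in WT IL-6 and at 275 and 244 CPM in WT control. The HET and WT libraries therefore overlapped in Dnmt3a within each treatment, and by edgeR HET over WT stood at a log2 fold change of -0.02 ± 0.25 after IL-6 (adjusted p = 0.972) and -0.32 ± 0.25 in control (adjusted p = 0.506). The transcript did not separate the genotypes, so HET and WT below mean the libraries labelled so. All 8 macrophage markers examined were present, with a summed level of 11910 to 12200 CPM in HET IL-6, 12790 to 12940 in HET control, 13170 to 14140 in WT IL-6 and 11900 to 12500 in WT control. The 4 monocyte markers used summed to 36.7 to 44.0 CPM in HET IL-6, 25.5 to 34.9 in HET control, 54.4 to 72.4 in WT IL-6 and 36.9 to 44.0 in WT control, with the defining Ly6c2 under 1 CPM in every group. Of the 8 neutrophil markers, 7 were under 1 CPM in every group, including S100a8 and Ly6g. In bulk RNA, fewer cells of a type and less RNA per cell cannot be told apart, and the part of the marker levels in the results below was not tested.

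Set side by side per kilobase of exon, Tnf was the most abundant of the 10 transcripts, at a mean of 343 CPM per kb over the 8 libraries and above 99.26% of the 13721 genes tested. Nlrp3 (110 CPM per kb), Il1b (91.8 CPM per kb) and Il10 (72.3 CPM per kb) followed. Casp1 and Gsdmd were at 38.6 and 37.0 CPM per kb, and Il1rn, Pycard and Il18 at 16.0, 13.6 and 12.4 CPM per kb. Il1a was the least abundant, at 5.58 CPM per kb. By this measure Il1b lay well above Il1a in the same libraries, and the sensor Nlrp3 above its partners Casp1 and Pycard. The length used is that of all annotated exons of a gene, whichever transcript was expressed. Levels and order between genes are therefore approximate. All values that follow are CPM, given for number 1 and then number 2 of a group, and are to be compared between groups and not between genes.

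**Figure D1:**
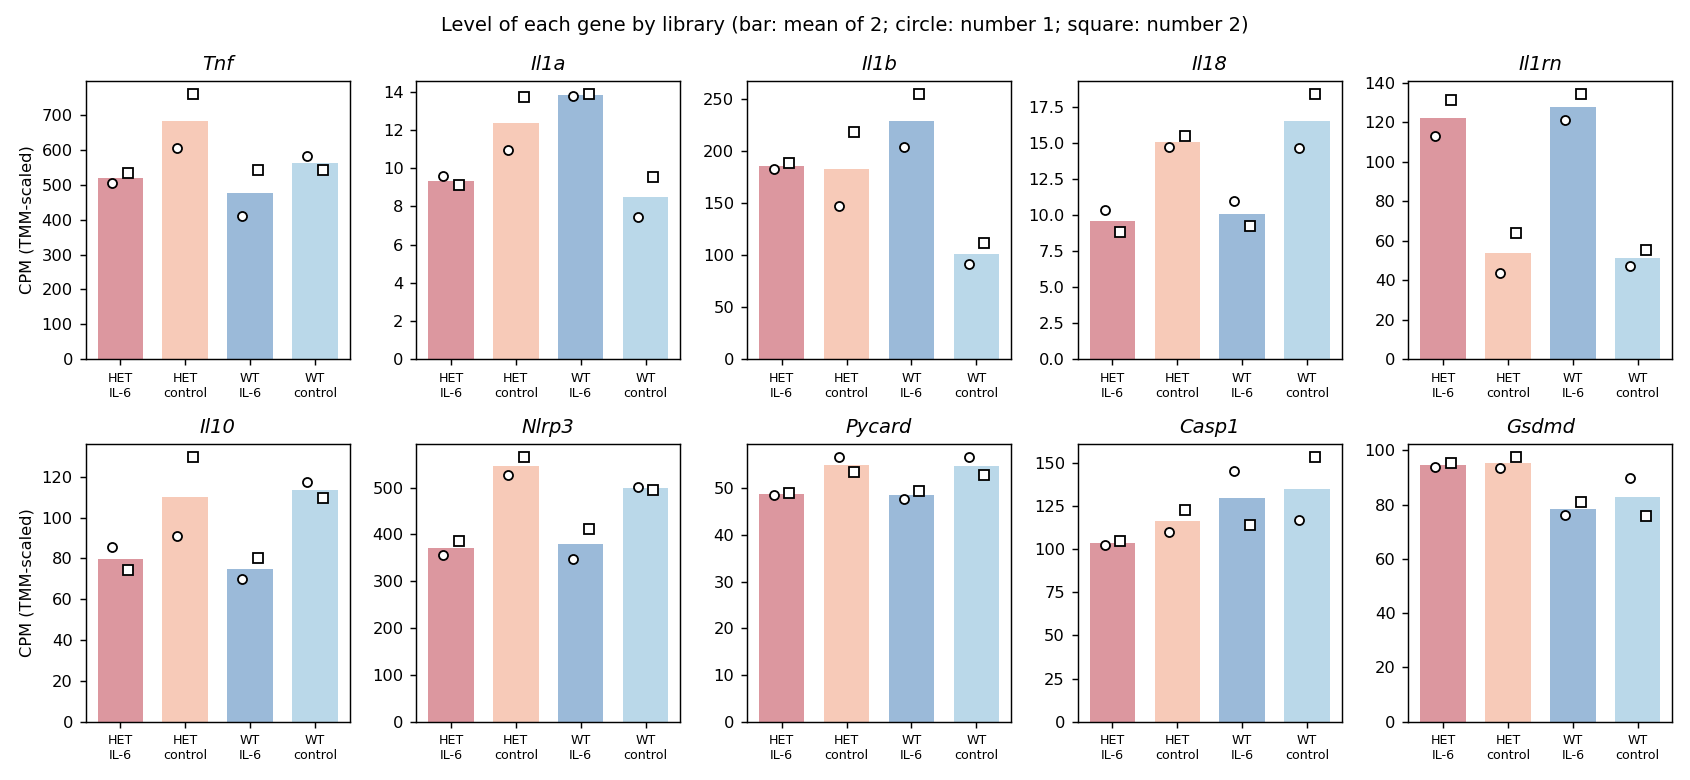
Level of each of the 10 genes in the 8 libraries, in CPM (vertical axis, from 0), by group (horizontal axis), with circles for number 1 libraries, squares for number 2 libraries and bars for the mean of the 2. Il1rn stands higher in the 4 IL-6 libraries than in the 4 control libraries, whereas Il1b is low in the 2 WT control libraries alone, at 91.2 and 112 CPM.

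The genes of IL-1 alpha and IL-1 beta, the agonists of the IL-1 receptor, did not respond alike in the 2 genotypes. IL-6 raised both in WT macrophages, Il1b by 2.26-fold and Il1a by 1.64-fold, while in HET macrophages neither passed the test. In control macrophages both were higher in HET than in WT, by 1.81-fold for Il1b and 1.46-fold for Il1a. After IL-6 this order was turned for Il1a, which was lower in HET. The response to IL-6 of these genes differed between the genotypes. That difference is built from the same group means, so it is not independent of the rise in WT or of the order in control.

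Il1b (chromosome 2, 129364570 to 129371139, mm10, minus strand) was at 182 and 189 CPM in HET IL-6, at 148 and 219 CPM in HET control, at 204 and 255 CPM in WT IL-6 and at 91.2 and 112 CPM in WT control. The 2 WT control libraries were the lowest of all 8, both HET IL-6 libraries lay between the HET control libraries, and both WT IL-6 libraries lay above both HET IL-6 libraries. IL-6 over control gave a log2 fold change of 0.02 ± 0.17 in HET (edgeR adjusted p = 0.959) and 1.18 ± 0.18 in WT (edgeR adjusted p = 0.00135). Each value was also computed under 16 alternatives, 8 of which left out 1 library. Ranges of adjusted p over the alternatives, here and below, are by edgeR in all settings but that of DESeq2. Without WT control number 1 the WT value was 1.04 (edgeR adjusted p = 0.108, range 6.4e-19 to 0.108 over the alternatives). HET over WT was 0.85 ± 0.18 in control (edgeR adjusted p = 0.031) and -0.30 ± 0.17 after IL-6 (edgeR adjusted p = 0.245). The control difference was as small as 0.54 without HET control number 2 (edgeR adjusted p = 0.0781) and also when both HET number 2 libraries were left out (edgeR adjusted p = 0.0732). It was 0.71 without WT control number 1 and 1.01 without WT control number 2 (edgeR adjusted p = 0.203 and 0.204), and 0.85 without WT IL-6 number 1 or number 2 (edgeR adjusted p = 0.0574 and 0.0633), over a range of 1.07e-10 to 0.204 in the alternatives. Offsets for GC content and exon length, fitted per library and added after the data were seen, gave 0.91 in control (edgeR adjusted p = 0.138), and leaving out both HET number 1 libraries kept the call.

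Il1a (chromosome 2, 129299610 to 129309972, mm10, minus strand) lies 54.6 kb from Il1b on the same strand. It was at 9.57 and 9.14 CPM in HET IL-6, at 10.98 and 13.8 CPM in HET control, at 13.8 and 13.9 CPM in WT IL-6 and at 7.45 and 9.53 CPM in WT control, from 187 to 451 reads a library. The WT IL-6 libraries were the highest, both HET control libraries lay above both WT control libraries, and HET IL-6 overlapped WT control. The log2 fold change of IL-6 over control was -0.41 ± 0.14 in HET (edgeR adjusted p = 0.0622) and 0.71 ± 0.15 in WT (edgeR adjusted p = 0.00367). The WT rise was called in all 16 alternatives, and the HET value was called without WT control number 1 or number 2 (edgeR adjusted p = 0.0271 and 0.0274, range 0.0271 to 0.78 over the alternatives), with scaling to library totals and with the offsets. HET over WT was -0.57 ± 0.14 after IL-6 (edgeR adjusted p = 0.0128) and 0.55 ± 0.15 in control (edgeR adjusted p = 0.0489). The call after IL-6 was lost without HET IL-6 number 1 (-0.61, edgeR adjusted p = 0.0553), HET IL-6 number 2 (-0.55, edgeR adjusted p = 0.104) or WT IL-6 number 1 (-0.57, edgeR adjusted p = 0.0692). It was also lost when both HET number 2 libraries (-0.53) or both HET number 1 libraries (-0.59) were left out and with the offsets (-0.35). The control call was lost in 9 of 16 alternatives. Its value was 0.38 without HET control number 2 or without WT control number 1 (edgeR adjusted p = 0.338 and 0.138), 0.70 without HET control number 1 (edgeR adjusted p = 0.115) and 0.55 without HET IL-6 number 1 or number 2 (edgeR adjusted p = 0.0801 and 0.0806). It stood at 0.37 when both HET number 2 libraries were left out and at 0.70 when both HET number 1 libraries were. Other genes share 11.2% of the exon bases of Il1a (Gm14023, 3 to 18 reads a library) and 1.31% of those of Il1b (Il1bos, 1 to 10 reads), and with the counting's strand setting unknown, reads of a gene and its partner cannot be told apart.

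The response to IL-6 itself differed between the genotypes for these 2 genes. HET minus WT was -1.12 ± 0.20 for Il1a (edgeR adjusted p = 0.00506) and -1.16 ± 0.25 for Il1b (edgeR adjusted p = 0.0232). Of the 10 genes, 2 were called lower and none higher in this difference (2 at an unadjusted p under 0.05, 2 by DESeq2), where 8.12% of all tested genes were called (4.52% higher and 3.6% lower). The median of the 10 differences was -0.12, against 0.02 over all tested genes. The other 8 genes had differences of -0.17 to 0.13, with edgeR adjusted p from 0.494 to 0.984, which does not show that their responses were alike. The Il1a difference was called without each library in turn (edgeR adjusted p 0.000715 to 0.0275), and was -0.90 without both HET number 2 libraries (edgeR adjusted p = 0.0838, range 3.13e-06 to 0.0838 over the alternatives). For Il1b the call was lost with the GC and length offsets. It was also lost without any of the IL-6 libraries and without either WT control library. The difference was then -1.15 without HET IL-6 number 1, -1.20 without HET IL-6 number 2, -1.31 without WT IL-6 number 1 and -0.99 without WT IL-6 number 2. It was -1.02 without WT control number 1 and -1.31 without WT control number 2. The edgeR adjusted p of these was 0.0595 to 0.25 (2.61e-10 to 0.25 over the 16 alternatives), and the Il1b difference stayed negative in all of them, from -1.41 to -0.84.

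The 250 bases before the start of Il1a (chr2:129309973-129310222, minus strand) and of Il1b (chr2:129371140-129371389, minus strand) are shown because both of these neighbours rose in WT and differed in response between the genotypes. Those of Il1rn (chr2:24336610-24336859, plus strand), the first of its 3 annotated starts, are shown because its rise was the largest of the 10 in both genotypes. The sequences are from RefSeq on GRCm38.p6, 5′ to 3′ on the gene's strand, and capitals mark a TATA box (TATAAA) or an AP-1 motif (TGANTCA).
Il1a promoter: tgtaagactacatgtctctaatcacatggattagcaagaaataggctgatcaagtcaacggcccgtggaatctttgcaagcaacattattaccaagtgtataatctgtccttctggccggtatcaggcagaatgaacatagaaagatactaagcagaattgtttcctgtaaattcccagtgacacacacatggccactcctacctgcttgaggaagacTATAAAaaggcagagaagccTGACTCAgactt
Il1b promoter: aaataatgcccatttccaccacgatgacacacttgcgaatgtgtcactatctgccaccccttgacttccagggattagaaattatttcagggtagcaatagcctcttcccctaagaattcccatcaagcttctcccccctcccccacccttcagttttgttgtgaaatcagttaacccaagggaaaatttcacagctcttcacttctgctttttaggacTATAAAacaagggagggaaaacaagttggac
Il1rn promoter: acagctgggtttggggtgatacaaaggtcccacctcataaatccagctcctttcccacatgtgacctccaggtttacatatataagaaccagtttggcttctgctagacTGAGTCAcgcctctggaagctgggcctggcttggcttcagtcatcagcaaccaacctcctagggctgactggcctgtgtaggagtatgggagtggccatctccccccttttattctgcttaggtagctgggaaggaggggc
The TATA box stands at bases -32 to -27 in Il1a and -31 to -26 in Il1b, counted from the start. The AP-1 motif, the letters bound by Fos and Jun dimers, stands at bases -12 to -6 in Il1a and -141 to -135 in the Il1rn window shown. The windows of the later Il1rn starts hold no match to the motifs searched for. Which of the starts was used in these cells was not tested. Of all 32817 promoter windows of that length, 7.6% hold TATAAA on the gene's strand and 6.75% hold TGANTCA on either strand. In the 11 windows of the 8 genes with an entry, Tnf has a TATA box (-29 to -24), Pycard a C/EBP motif (TTNNGCAA, in 9.57% of all windows) and Nlrp3 a match to the kappa-B consensus (in 3.9% of all windows). The STAT motif TTCNNNGAA, in 7.01% of all windows, was found in none of the 11, which says only that these letters are not in these windows. The matches do not overlap each other and are descriptions of sequence, not bound sites.

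Tnf (chromosome 17, 35199381 to 35202007, mm10, minus strand), which encodes tumour necrosis factor, was at 507 and 536 CPM in HET IL-6, at 608 and 761 CPM in HET control, at 411 and 544 CPM in WT IL-6 and at 584 and 544 CPM in WT control. The HET control libraries were the highest, and the WT IL-6 and HET IL-6 libraries overlapped. IL-6 over control was -0.39 ± 0.12 in HET (edgeR adjusted p = 0.0426) and -0.24 ± 0.12 in WT (edgeR adjusted p = 0.215). The fall in HET was lost without HET IL-6 number 1 (-0.35, edgeR adjusted p = 0.247), HET IL-6 number 2 (-0.43, edgeR adjusted p = 0.14) or HET control number 2 (-0.22, edgeR adjusted p = 0.404), and without WT control number 1 or number 2 (edgeR adjusted p = 0.127 and 0.128, range 0.00121 to 0.551 over the alternatives). With the offsets it was -0.41 (edgeR adjusted p = 0.0577). In WT the value was -0.45 with WT IL-6 number 2 left out (edgeR adjusted p = 0.0211, range 0.0211 to 0.85). HET over WT was 0.13 ± 0.12 after IL-6 (edgeR adjusted p = 0.497) and 0.28 ± 0.12 in control (edgeR adjusted p = 0.219), and all genes taken without the low-count filter put the control value past the threshold (edgeR adjusted p = 0.0498, range 0.0498 to 0.849).

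Il18 (chromosome 9, 50554827 to 50581840, mm10, plus strand) encodes interleukin 18, which caspase-1 also matures, and fell after IL-6 in both genotypes. Its levels were 10.4 and 8.85 CPM in HET IL-6, 14.7 and 15.5 CPM in HET control, 11.0 and 9.22 CPM in WT IL-6 and 14.7 and 18.4 CPM in WT control. All 4 IL-6 libraries were below all 4 control libraries. The log2 fold change was -0.67 ± 0.14 in HET (edgeR adjusted p = 0.00377) and -0.70 ± 0.14 in WT (edgeR adjusted p = 0.00325). The HET fall was -0.54 without HET IL-6 number 2 (edgeR adjusted p = 0.0803) and -0.51 without both HET number 2 libraries (edgeR adjusted p = 0.238, range 3.2e-05 to 0.238). The WT fall was called in all 16 alternatives. Between the genotypes Il18 stood at -0.09 ± 0.15 after IL-6 (HET over WT, edgeR adjusted p = 0.686) and -0.13 ± 0.14 in control (edgeR adjusted p = 0.637).

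Among the antagonists, the gene of the IL-1 receptor antagonist rose in both genotypes, with the largest log2 fold change of the 10 genes in each, and Il10 fell in both. Il1rn (chromosome 2, 24336853 to 24351494, mm10, plus strand) was at 113 and 131 CPM in HET IL-6, at 43.5 and 63.7 CPM in HET control, at 121 and 134 CPM in WT IL-6 and at 46.9 and 55.1 CPM in WT control. The 4 IL-6 libraries were far above the 4 control libraries, and HET and WT overlapped within each treatment. IL-6 over control was 1.19 ± 0.15 in HET, a 2.28-fold rise (edgeR adjusted p = 0.00017), and 1.32 ± 0.15 in WT, a 2.50-fold rise (edgeR adjusted p = 7.93e-05). Both rises were called in all 16 alternatives, where they ran from 0.94 to 1.49 in HET and from 1.21 to 1.44 in WT. The genotypes differed by -0.06 ± 0.15 (HET over WT) after IL-6 (edgeR adjusted p = 0.803) and 0.07 ± 0.15 in control (edgeR adjusted p = 0.828).

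Il10 (chromosome 1, 131019845 to 131024974, mm10, plus strand), which encodes an anti-inflammatory cytokine, was at 85.4 and 74.4 CPM in HET IL-6, at 90.9 and 130 CPM in HET control, at 69.7 and 80.2 CPM in WT IL-6 and at 117 and 110 CPM in WT control. Both genotypes were lower with IL-6 in every library, and HET overlapped WT within each treatment. HET over WT stood at 0.09 ± 0.14 after IL-6 (edgeR adjusted p = 0.681) and -0.04 ± 0.14 in control (edgeR adjusted p = 0.895). The log2 fold change of IL-6 over control was -0.47 ± 0.14 in HET (edgeR adjusted p = 0.034) and -0.60 ± 0.14 in WT (edgeR adjusted p = 0.00983). In HET the call was lost without any library other than HET control number 1, with -0.19 without HET control number 2 (edgeR adjusted p = 0.418), -0.37 without HET IL-6 number 2 (edgeR adjusted p = 0.229), -0.56 without HET IL-6 number 1 (edgeR adjusted p = 0.0523) and -0.47 without any 1 of the WT libraries (edgeR adjusted p 0.0609 to 0.135). Leaving out both HET number 2 libraries gave -0.09, leaving out both HET number 1 libraries gave -0.79, and the offsets gave -0.46 (edgeR adjusted p = 0.879, 0.00271 and 0.175, range 4.2e-05 to 0.879). In WT the call was lost when any of 3 libraries was left out, WT IL-6 number 1 (-0.50, edgeR adjusted p = 0.145), WT control number 1 (-0.55, edgeR adjusted p = 0.191) or WT control number 2 (-0.65, edgeR adjusted p = 0.0919), and with the offsets (-0.66, edgeR adjusted p = 0.0838, range 1.32e-08 to 0.191).

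The balance between antagonist and agonists was read as a ratio of CPM within a library, which counting depth and scaling do not move. The ratio is not corrected for length, so it compares libraries and not genes. Il1rn over Il1b was 0.621 and 0.694 in HET IL-6, 0.295 and 0.291 in HET control, 0.593 and 0.526 in WT IL-6 and 0.514 and 0.493 in WT control. In HET the IL-6 libraries were far above the control libraries, and in WT they were above them by little. The 2 HET control libraries held the lowest ratios of all 8. Il1rn over Il1a was 11.8 and 14.4 in HET IL-6, 3.96 and 4.63 in HET control, 8.77 and 9.67 in WT IL-6 and 6.30 and 5.78 in WT control, in the same order of groups. Il1b over Il1a was 19.1 and 20.7 in HET IL-6, 13.4 and 15.9 in HET control, 14.8 and 18.4 in WT IL-6 and 12.2 and 11.7 in WT control, so the IL-6 libraries lay above the control libraries of their genotype in WT and in HET. With 2 libraries a group, these ratios are given as values with no test.

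**Figure D2:**
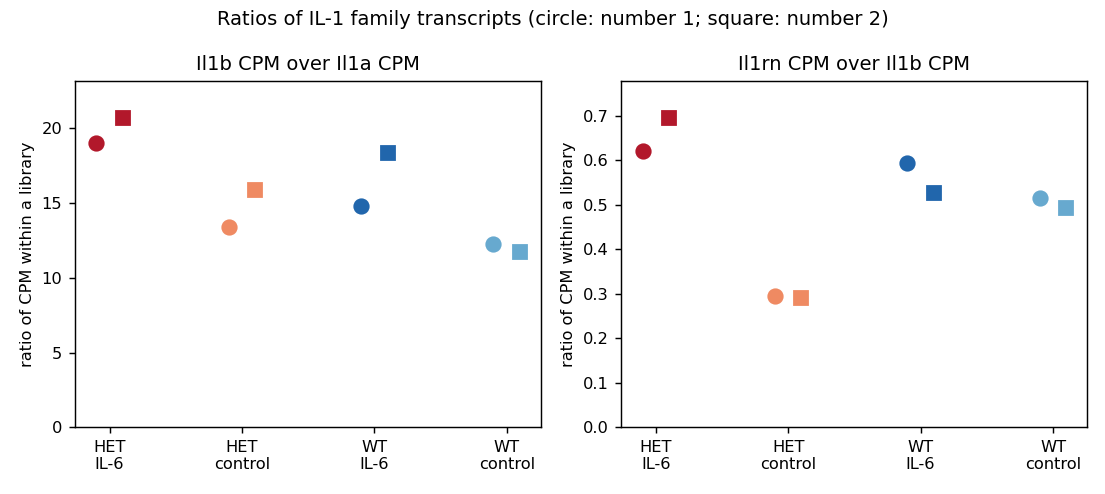
Ratio of CPM within a library for Il1b over Il1a (left) and Il1rn over Il1b (right), on vertical axes from 0, by group, with circles for number 1 and squares for number 2 libraries. The HET control libraries hold the lowest Il1rn over Il1b ratios, at 0.295 and 0.291.

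Nlrp3 (chromosome 11, 59541568 to 59566956, mm10, plus strand), the sensor of the inflammasome, fell after IL-6 in both genotypes. It was at 355 and 385 CPM in HET IL-6, at 527 and 565 CPM in HET control, at 347 and 411 CPM in WT IL-6 and at 501 and 496 CPM in WT control. All 4 IL-6 libraries were below all 4 control libraries, and both HET control libraries were above both WT control libraries. The log2 fold change was -0.56 ± 0.09 in HET (edgeR adjusted p = 0.000628) and -0.39 ± 0.09 in WT (edgeR adjusted p = 0.00765). Without both HET number 1 libraries the HET value was -0.54 (edgeR adjusted p = 0.0681, range 1.23e-07 to 0.0681), and without WT IL-6 number 1 the WT value was -0.28 (edgeR adjusted p = 0.09, range 0.000595 to 0.09). In HET over WT it was at -0.03 ± 0.09 after IL-6 (edgeR adjusted p = 0.824) and 0.13 ± 0.09 in control (edgeR adjusted p = 0.432).

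The adaptor, the caspase and the pore did not pass the test for IL-6 in either genotype. Pycard (chromosome 7, 127989708 to 127993867, mm10, minus strand), the gene of the adaptor ASC, was at 48.5 and 49.1 CPM in HET IL-6, at 56.6 and 53.4 CPM in HET control, at 47.6 and 49.3 CPM in WT IL-6 and at 56.7 and 52.9 CPM in WT control. The 4 IL-6 libraries were again below the 4 control libraries, by little. The fold change was -0.17 ± 0.08 in HET (log2, edgeR adjusted p = 0.176) and -0.18 ± 0.08 in WT (edgeR adjusted p = 0.164). With the offsets the WT value was -0.22 and passed (edgeR adjusted p = 0.0444, range 0.0444 to 0.437). Between the genotypes Pycard stood at 0.01 ± 0.08 after IL-6 (HET over WT, edgeR adjusted p = 0.942) and 0.004 ± 0.08 in control (edgeR adjusted p = 0.983). Other genes share 12.8% of its exon bases (Gm45205, 2 to 20 reads a library), so its value is uncertain to that extent.

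Casp1 (chromosome 9, 5298508 to 5307290, mm10, plus strand), the gene of caspase-1, was at 102 and 105 CPM in HET IL-6, at 110 and 122 CPM in HET control, at 145 and 114 CPM in WT IL-6 and at 117 and 153 CPM in WT control. The WT libraries spread widely and overlapped between treatments, and in IL-6 both HET libraries lay below both WT libraries. IL-6 over control was -0.17 ± 0.13 in HET (edgeR adjusted p = 0.438) and -0.06 ± 0.13 in WT (edgeR adjusted p = 0.806). HET over WT was -0.32 ± 0.13 after IL-6 (edgeR adjusted p = 0.0881) and -0.22 ± 0.13 in control (edgeR adjusted p = 0.355). The difference after IL-6 passed without WT IL-6 number 2 (-0.49), WT control number 1 (-0.32) or WT control number 2 (-0.32). It also passed without the low-count filter (edgeR adjusted p = 0.0116) and by DESeq2. Other settings shrank it, to -0.14 without WT IL-6 number 1 and to -0.09 with the offsets (edgeR adjusted p = 0.491). In control it passed without WT control number 1 (-0.40) and was -0.007 without WT control number 2.

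Gsdmd (chromosome 15, 75862327 to 75867408, mm10, plus strand), the gene of gasdermin D, was higher in HET than in WT after IL-6 and did not pass in control. It was at 93.8 and 95.5 CPM in HET IL-6, at 93.4 and 97.6 CPM in HET control, at 76.1 and 81.0 CPM in WT IL-6 and at 89.9 and 75.8 CPM in WT control. All 4 HET libraries were above all 4 WT libraries, and treatments overlapped in both genotypes. HET over WT was 0.27 ± 0.09 after IL-6 (edgeR adjusted p = 0.0455) and 0.20 ± 0.09 in control (edgeR adjusted p = 0.211). The call after IL-6 was lost without HET IL-6 number 1 (edgeR adjusted p = 0.181), HET IL-6 number 2 (edgeR adjusted p = 0.243), HET control number 1 or number 2 (edgeR adjusted p = 0.0741 and 0.0739) or WT IL-6 number 1 (edgeR adjusted p = 0.264), at values of 0.23 to 0.27. It was also lost when both HET number 2 libraries (0.26) or both HET number 1 libraries (0.29) were left out, with RLE scaling (edgeR adjusted p = 0.0531), and with the offsets, where it was 0.07 (edgeR adjusted p = 0.489, range 0.00947 to 0.489). In control it passed without WT control number 1 (0.33, edgeR adjusted p = 0.0312, range 0.0312 to 0.693). IL-6 over control was -0.01 ± 0.09 in HET (edgeR adjusted p = 0.951) and -0.08 ± 0.09 in WT (edgeR adjusted p = 0.618).

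**Figure D3:**
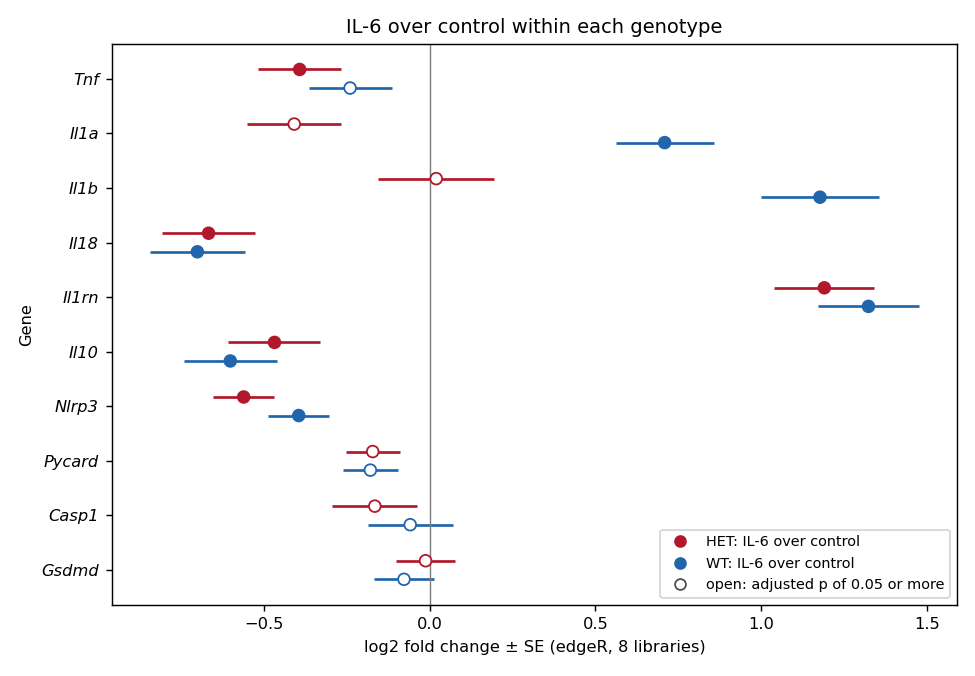
Log2 fold change of IL-6 over control with its standard error (horizontal axis) for the 10 genes (vertical axis), HET above WT within each gene. Filled points have an edgeR adjusted p under 0.05. Il1rn is far to the right in both genotypes, and Il1b is at 0.02 in HET and 1.18 in WT.

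Counted over the 10 genes, IL-6 raised 1 and lowered 4 in HET, where 18.3% of all tested genes were called (8.87% higher and 9.41% lower). It raised 3 and lowered 3 in WT, where 18.3% of all tested genes were called (7.91% higher and 10.4% lower). The median log2 fold change of the 10 was -0.28 in HET and -0.13 in WT, against 0.01 and -0.01 over all tested genes. Groups did not overlap for 8 of the 10 genes in HET (64.8% of all genes) and for 8 in WT (52.6% of all genes). In HET the count of called genes was 2 when both HET number 2 libraries were left out and 3 when both HET number 1 libraries were. The 2 genotypes were fitted together but share no library, and their values stand side by side here without a test of likeness.

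HET over WT called 1 of the 10 genes higher (Gsdmd) and 1 lower (Il1a) after IL-6, where 22% of all tested genes were called (13.2% higher and 8.8% lower). In control it called 2 higher and none lower (4 higher and 0 lower at an unadjusted p under 0.05, 2 and 0 by DESeq2), where 4.85% of all tested genes were called (2.81% higher and 2.05% lower). Groups did not overlap for 4 of the 10 genes after IL-6 (65.1% of all genes) and for 5 in control (50.6% of all genes). The medians were -0.05 after IL-6 and 0.10 in control, against -0.01 and -0.004 over all tested genes. Without both HET number 2 libraries no gene of the 10 was called in either treatment.

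**Figure D4:**
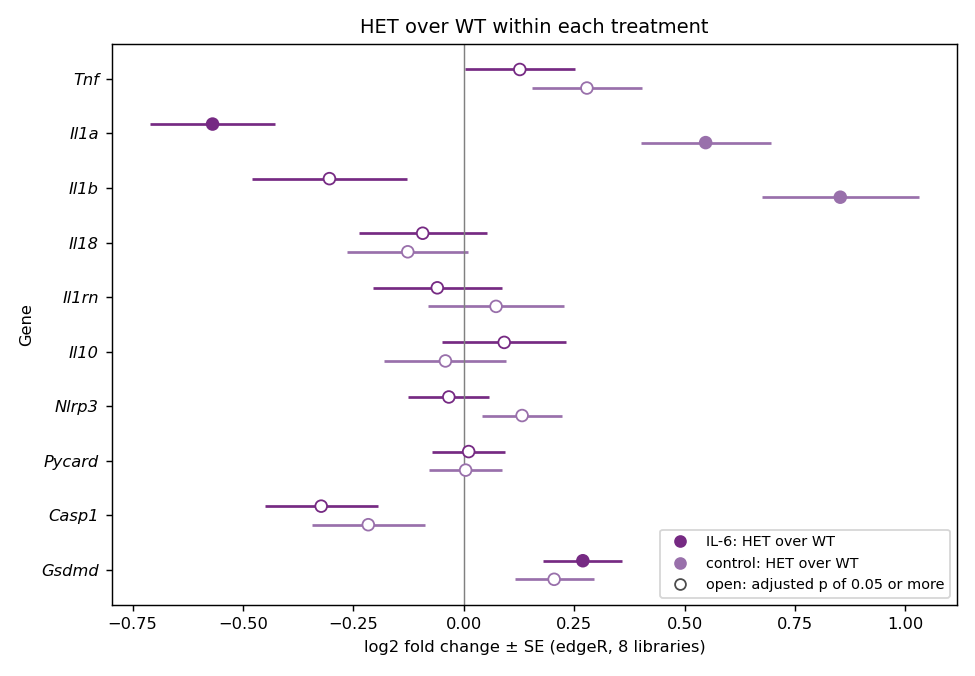
Log2 fold change of HET over WT with its standard error (horizontal axis) for the 10 genes (vertical axis), IL-6 above control within each gene. Filled points have an edgeR adjusted p under 0.05. Il1a lies at -0.57 after IL-6 and at 0.55 in control, and Il1b at -0.30 and 0.85.

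Of 7 tested receptors and binding proteins of the IL-1 family, IL-6 raised 3 and lowered 1 in HET, where 8.87% of all tested genes rose and 9.41% fell. It raised 3 and lowered 1 in WT, where 7.91% of all tested genes rose and 10.4% fell. The medians of the list were 0.32 in HET and -0.16 in WT, against 0.01 and -0.01 over all tested genes. Il18rap, the accessory chain of the IL-18 receptor, rose by 0.72 ± 0.14 in HET (edgeR adjusted p = 0.0023) and by 1.20 ± 0.15 in WT (edgeR adjusted p = 4.52e-05). Il1r1, the signalling receptor of IL-1, averaged 1.32 CPM in HET IL-6 and 0.338 in HET control, and 1.67 CPM in WT IL-6 and 0.561 in WT control. Its log2 fold change was 1.96 ± 0.41 in HET (edgeR adjusted p = 0.00401) and 1.56 ± 0.38 in WT (edgeR adjusted p = 0.0105). Without HET control number 1 the HET rises of Il18rap and Il1r1 did not pass (edgeR adjusted p = 0.0549 and 0.0713), nor did that of Il1r1 in WT when WT IL-6 number 1 was left out (edgeR adjusted p = 0.0598). Il1rl1, the IL-33 receptor, fell by 1.23 on the log2 scale in HET, called without each library in turn (edgeR adjusted p at most 0.027). In WT it was at -0.69 ± 0.23 (edgeR adjusted p = 0.0467), lost without any library other than WT control number 1 (edgeR adjusted p up to 0.419). It was -0.26 without WT control number 2 and -1.04 without WT control number 1. Il18bp, which neutralises IL-18, rose in HET by 0.38 ± 0.12 (edgeR adjusted p = 0.0467), lost without any 1 of the HET libraries (edgeR adjusted p up to 0.343). Il1rap, the shared co-receptor, rose in WT by 0.53 ± 0.14 (edgeR adjusted p = 0.0153), lost without WT IL-6 number 1 or WT control number 1 (edgeR adjusted p up to 0.162). Between the genotypes none of the 7 was called after IL-6 or in control (2 and 0 at an unadjusted p under 0.05, none by DESeq2). Of all tested genes, 22% were called after IL-6 and 4.85% in control, and so few genes are not read further.

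Of 10 other inflammasome sensors and adaptors, 1 rose and 3 fell after IL-6 in HET and 1 rose and 2 fell in WT, where 18.3% of all tested genes were called in each genotype. The list medians were -0.18 in HET and -0.12 in WT. Aim2, a sensor of cytosolic DNA, was lower with IL-6 by -0.37 ± 0.09 in HET (edgeR adjusted p = 0.0123) and by -0.44 ± 0.09 in WT (edgeR adjusted p = 0.00459), and the HET call was lost without any 1 of the HET libraries (edgeR adjusted p up to 0.097). Nek7, a kinase that binds NLRP3, averaged 134 CPM in HET IL-6, 168 in HET control and 184 in WT IL-6, and was lower with IL-6 in HET (-0.33 ± 0.09, edgeR adjusted p = 0.0228) and in HET over WT after IL-6 (-0.46 ± 0.09, edgeR adjusted p = 0.00369). The first of these was lost without any 1 of the HET libraries (edgeR adjusted p up to 0.213). The second held without each library in turn, was lost without both HET number 2 or both HET number 1 libraries (edgeR adjusted p up to 0.0623) and was -0.22 with the offsets. Naip6, one of a family of near-identical sensor genes and so uncertain, was lower with IL-6 in HET (-0.35) and in WT (-0.26). The HET call was lost without any 1 of the HET libraries (edgeR adjusted p up to 0.092), the WT call without any library other than WT control number 1 (edgeR adjusted p up to 0.177). Mefv, the gene of pyrin, rose in WT by 1.52 ± 0.37 (edgeR adjusted p = 0.00975), at 1.34 CPM with IL-6 against 0.466 in control, and did not pass without WT control number 1 (edgeR adjusted p = 0.0958). Card9, an adaptor of lectin receptors, averaged 70.1 CPM in HET IL-6 against 42.5 in WT IL-6 (0.73 ± 0.11, edgeR adjusted p = 0.000542), called in all 16 alternatives and at 0.41 with the offsets. Its rise with IL-6 in HET (0.45 ± 0.11, edgeR adjusted p = 0.00823) was lost without HET IL-6 number 2 or HET control number 2 (edgeR adjusted p up to 0.103). Nlrp1b was lower in HET than in WT after IL-6 (-0.33 ± 0.10, edgeR adjusted p = 0.0273), lost without any 1 of the IL-6 libraries (edgeR adjusted p up to 0.137). In control no gene of this list was called between the genotypes (2 at an unadjusted p under 0.05, none by DESeq2), against 4.85% of all tested genes.

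Among 8 further caspases and effectors of lytic death, IL-6 lowered 1 in each genotype and raised none, and HET over WT after IL-6 called 1 higher and 1 lower, against 18.3% of all tested genes called with IL-6 in each genotype and 22% between the genotypes. The list medians for IL-6 were -0.15 in HET and 0.06 in WT. Ninj1, which ruptures the plasma membrane downstream of gasdermin pores, was higher in HET than in WT after IL-6. It averaged 155 CPM in HET IL-6 and 92.4 CPM in WT IL-6 (0.75 ± 0.08, edgeR adjusted p = 0.000127), called in all 16 alternatives and at 0.30 with the offsets. In WT it fell with IL-6 by 0.46 on the log2 scale (edgeR adjusted p = 0.00138), also called in all 16 and at -0.25 with the offsets. Panx1, a membrane channel, was lower with IL-6 in HET (-0.29 ± 0.09, edgeR adjusted p = 0.0371), lost without any 1 of the HET libraries (edgeR adjusted p up to 0.335). Casp8 was lower in HET than in WT after IL-6 (-0.28 ± 0.08, edgeR adjusted p = 0.0242), lost without either HET IL-6 library or WT IL-6 number 1 (edgeR adjusted p up to 0.223), and was -0.18 with the offsets. No other member was called, and in control none was (2 at an unadjusted p under 0.05, none by DESeq2), against 4.85% of all tested genes.

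In the IL-1 and Toll signalling chain, 2 of 8 genes rose and 1 fell with IL-6 in HET, where 8.87% of all tested genes rose and 9.41% fell. In WT 1 of 8 was called, a share near the 18.3% of all tested genes. The list medians were 0.003 in HET and -0.04 in WT. Myd88, the adaptor of IL-1 and Toll-like receptors, rose by 0.54 ± 0.09 in HET (edgeR adjusted p = 0.000777) and by 0.63 ± 0.09 in WT (edgeR adjusted p = 0.000217), and both calls held without each library in turn. Another gene (Acaa1a) shares 11.3% of its exon bases, so it is uncertain to that extent. Irak2 fell and Tab2 rose in HET (-0.43 and 0.25), each lost without any 1 of the HET libraries (edgeR adjusted p up to 0.143 and 0.297). No member was called between the genotypes (1 at an unadjusted p under 0.05 after IL-6 and 2 in control, with 0 and 1 by DESeq2). The shares of all tested genes called were 22% after IL-6 and 4.85% in control, so with 8 genes this count is not read further.

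Of the 9 tested genes of TNF receptors, shedding and signalling, 1 rose and 3 fell with IL-6 in HET, and 2 rose and 1 fell in WT, where 18.3% of all tested genes were called in each genotype. The list medians were 0.09 in HET and 0.0007 in WT. Tnfrsf1a, the main signalling receptor of TNF, rose by 0.43 ± 0.09 in HET (edgeR adjusted p = 0.00304) and by 0.35 ± 0.09 in WT (edgeR adjusted p = 0.0116), the WT rise being lost without WT IL-6 number 2 or WT control number 2 (edgeR adjusted p up to 0.0731). Tnfrsf1b, the second TNF receptor, rose in WT by 0.57 ± 0.09 (edgeR adjusted p = 0.000653), called in all 16 alternatives. In control it was higher in HET than in WT (0.40 ± 0.09, edgeR adjusted p = 0.0312), lost without any library other than WT IL-6 number 1, WT IL-6 number 2 and WT control number 1 (edgeR adjusted p up to 0.214). Adam17, the protease that sheds TNF, averaged 265 CPM in HET IL-6, 344 in HET control and 343 in WT IL-6, and was lower with IL-6 in HET (-0.38 ± 0.10, edgeR adjusted p = 0.0179) and in HET over WT after IL-6 (-0.37 ± 0.10, edgeR adjusted p = 0.0185). The first was lost without either HET IL-6 library or HET control number 1 (edgeR adjusted p up to 0.216), the second without either HET IL-6 library or WT IL-6 number 1 (edgeR adjusted p up to 0.135), and it was -0.24 and not called with the offsets. Rhbdf2, which carries ADAM17 to the cell surface, was higher in HET than in WT after IL-6 (0.55 ± 0.08, edgeR adjusted p = 0.000775), called without each library in turn but at 0.12 with the offsets (edgeR adjusted p = 0.322, range up to 0.322). In control it was at 0.33 ± 0.08 (edgeR adjusted p = 0.0427), lost without any 1 of the HET libraries or WT control number 1 (edgeR adjusted p up to 0.281, and up to 0.472 over the alternatives, of which 9 of 16 lost it), and was 0.14 with the offsets. Its relative Rhbdf1, at 0.910 to 2.77 CPM on average, was lower with IL-6 in HET (-0.82), lost without any 1 of the HET libraries (edgeR adjusted p up to 0.276), and in WT (-1.10), lost without either WT IL-6 library or WT control number 1 (edgeR adjusted p up to 0.179). Tnfaip3, the gene of the inhibitor A20, was lower with IL-6 in HET (-0.34 ± 0.10, edgeR adjusted p = 0.0256), lost without either HET IL-6 library or HET control number 2 (edgeR adjusted p up to 0.32), and at -0.21 without HET control number 2.

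In the IL-10 axis, 1 of 6 genes rose and 2 fell with IL-6 in each genotype, where 18.3% of all tested genes were called in each. The list medians were -0.04 in HET and -0.11 in WT. Stat3, which carries the signals of both IL-6 and IL-10, rose by 0.62 ± 0.08 in HET (edgeR adjusted p = 9.73e-05) and by 0.51 ± 0.08 in WT (edgeR adjusted p = 0.000501), called in all 16 alternatives in both. Maf, a transcription factor known to drive Il10, fell in both genotypes, with -0.33 ± 0.09 in HET (edgeR adjusted p = 0.0157) and -0.61 ± 0.09 in WT (edgeR adjusted p = 2e-04). The WT call held in all 16 alternatives and the HET call was lost without any 1 of the HET libraries (edgeR adjusted p up to 0.201). In control Maf was lower in HET than in WT (-0.37 ± 0.09, edgeR adjusted p = 0.0291), lost without any 1 of the HET libraries or WT control number 2 (edgeR adjusted p up to 0.321). Tyk2, a kinase of the IL-10 receptor, fell with IL-6 in WT (-0.44 ± 0.09, edgeR adjusted p = 0.00382, called in all 16) and was higher in HET than in WT after IL-6 (0.44 ± 0.09, edgeR adjusted p = 0.0046), a value whose call was lost without HET IL-6 number 2 or WT IL-6 number 1 (edgeR adjusted p up to 0.0717). With the offsets it was 0.11 (edgeR adjusted p = 0.207, range up to 0.207), and the WT fall was -0.29. Pou2f1, 18.1% of whose exon bases lie in another gene, was lower with IL-6 in HET (-0.35), lost without any 1 of the HET libraries (edgeR adjusted p up to 0.122).

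Of 11 other tested macrophage cytokine genes, 5 were called higher and none lower in HET over WT after IL-6, where 13.2% of all tested genes were higher and 8.8% lower. In control none of them was called (5 at an unadjusted p under 0.05, none by DESeq2), against 4.85% of all tested genes. The list medians were 0.65 after IL-6 and 0.15 in control, against -0.01 and -0.004 over all tested genes. With IL-6, 2 of the 11 rose and 1 fell in HET, where 8.87% of all tested genes rose and 9.41% fell. In WT none rose and 2 fell, against 7.91% and 10.4% of all tested genes. Il6 itself was at 4.81 and 2.31 CPM in HET IL-6, at 0.613 and 0.628 CPM in HET control, at 0.620 and 0.697 CPM in WT IL-6 and at 1.47 and 1.15 CPM in WT control. It rose with IL-6 in HET by 2.46 ± 0.38 (edgeR adjusted p = 0.000376) and was higher in HET than in WT after IL-6 by 2.39 ± 0.38 (edgeR adjusted p = 0.000968), both called in all 16 alternatives. Its 2 HET IL-6 libraries differed from each other by more than those of any other group. Mif, the gene of macrophage migration inhibitory factor, was at 67.1 and 78.1 CPM in HET IL-6, at 57.2 and 55.5 CPM in HET control, at 39.2 and 34.1 CPM in WT IL-6 and at 45.3 and 44.5 CPM in WT control. HET over WT after IL-6 was 0.98 ± 0.10 (edgeR adjusted p = 7.04e-05), called in all 16 alternatives and at 0.34 with the offsets. With IL-6 in HET it rose by 0.37 ± 0.09 (edgeR adjusted p = 0.0142), lost without HET IL-6 number 2 or either HET control library. Mif has near-identical copies in the genome, so its count is uncertain. Tgfb1 (0.52 ± 0.08, edgeR adjusted p = 0.000883) was also called in all 16, and Osm, the gene of oncostatin M (0.73 ± 0.17, edgeR adjusted p = 0.013), was not without HET IL-6 number 1 or WT IL-6 number 1 (edgeR adjusted p up to 0.151). Il15 fell with IL-6 in HET (-0.59 ± 0.10, edgeR adjusted p = 0.000715) and in WT (-0.37 ± 0.10, edgeR adjusted p = 0.0182), the WT fall being lost without WT IL-6 number 2 or WT control number 2 (edgeR adjusted p up to 0.0896). Il16 fell in WT (-1.45 ± 0.24, edgeR adjusted p = 0.000617, called in all 16), with 17.4% of its exon bases in other genes.

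The last list holds 6 genes of proteins that bind or destroy cytokine transcripts. Zc3h12a, the gene of the nuclease regnase-1, averaged 108 CPM in HET IL-6, 167 in HET control and 116 in WT control. It fell with IL-6 in HET (-0.62 ± 0.11, edgeR adjusted p = 0.00135), called without each library in turn. In control it was higher in HET than in WT (0.53 ± 0.11, edgeR adjusted p = 0.0188), lost without either HET control library or WT control number 1 (edgeR adjusted p up to 0.12). Zfp36, the gene of tristetraprolin, which binds the AU-rich ends of Tnf and other cytokine transcripts, averaged 827 CPM in HET IL-6 and 496 CPM in WT IL-6 (0.74 ± 0.14, edgeR adjusted p = 0.00328), lost when WT IL-6 number 1 was left out (edgeR adjusted p = 0.0845, range up to 0.0939). In WT it was lower with IL-6 (-0.70 ± 0.14, edgeR adjusted p = 0.00352), lost without WT IL-6 number 1 or either WT control library (edgeR adjusted p up to 0.129). Zfp36l2 was lower with IL-6 in WT (-0.30), lost without either HET IL-6 library or WT IL-6 number 2 (edgeR adjusted p up to 0.12), and in HET over WT in control (-0.34), lost without any 1 of the HET libraries (edgeR adjusted p up to 0.251). Zfp36l1 rose with IL-6 in HET (0.26 ± 0.08, edgeR adjusted p = 0.0343), lost without any 1 of the HET libraries. In WT it fell (-0.30 ± 0.08, edgeR adjusted p = 0.0207), lost without any 1 of the IL-6 libraries or WT control number 1. After IL-6 it was higher in HET than in WT (0.60 ± 0.08, edgeR adjusted p = 0.000324), called in all 16 alternatives. Another gene shares 55.9% of its exon bases, so these values are uncertain. Of the 6 genes of this list, 1 rose and 1 fell with IL-6 in HET (8.87% and 9.41% of all tested genes) and 3 fell in WT (10.4% of all tested genes). HET over WT called 2 higher after IL-6 (13.2% of all tested genes), and 1 higher and 1 lower in control (2.81% and 2.05% of all tested genes). The list medians were -0.13 in HET and -0.28 in WT. Elavl1 and Hnrnpd were called in no comparison.

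The genes whose log2 CPM over the 8 libraries was most like each of the 10, among 9317 genes of at least 5 CPM, are given as a description. Pearson's r was 0.966 between Il1b and Cxcl16 and 0.95 between Il1b and Cxcr4, both chemokine system genes. For Il1a it was 0.94 with Tagap1 and 0.939 with Raet1d, the lowest of the first-ranked values among the 10. Il1rn was most like Ralgps1 (0.991) and Blcap (0.989), Tnf most like Phlda3 (0.993) and Mrps9 (0.974), and Nlrp3 most like Mtmr12 (0.984) and Ralgps2 (0.98). Il18 followed Phf11a (0.992) and Herc6 (0.991), and Il10 followed Ttll5 (0.965) and Psrc1 (0.961). Pycard was most like Lrrc20 (0.979) and Tnfrsf12a (0.976), Casp1 most like U2surp (0.984) and Rsrc2 (0.982), and Gsdmd most like Tsen54 (0.989) and Nt5c (0.988). These values come from 8 libraries in 4 groups that share their scaling, and the highest of 9317 values is high by selection.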

How the data were processed

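The values are whole-number gene counts that the authors deposited as 1 table of 55376 genes and 8 library columns. Each column was matched to its library by name. The submitters' processing notes name featureCounts 1.6.2, SAMtools 1.9, STAR 2.7.9a and fastp 0.12.4, with the build mm10, and per the labels' protocols libraries came from a stranded kit for polyadenylated RNA. For the counting, neither strand setting nor annotation release is given in the sources used here. The table holds 26 symbols that a spreadsheet turned into dates, none of them among the 10 genes.

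Counts were tested in R 4.3.3 with edgeR 4.0.16: filterByExpr with a minimum count of 10 (13721 genes left), TMM scaling, and a robust quasi-likelihood F test on all 8 libraries with 1 mean per group and 4 residual degrees of freedom. Tests were 2-sided, p-values were Benjamini-Hochberg adjusted over all tested genes, and a gene was called under 0.05. Values after ± are the standard error of a log2 fold change, and CPM are TMM-scaled. The procedure was run on simulated counts for the 4 comparisons between groups, with changes of 1 on the log2 scale. Smaller changes and the difference of the responses were not simulated. Alternatives were RLE scaling, library totals, no filter, DESeq2 1.42.0, the replicate number as a block, leaving out each library, both HET number 2 or both HET number 1 libraries, and, chosen after seeing the data, GC and length offsets. Exon lengths and overlaps come from GENCODE annotation whose gene spans match 97.9% of the table's genes.

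The 10 genes, the pathway lists and the tests were chosen with earlier results of these data known. Values of all 10 genes are given in every comparison, those of the difference of responses as a range where not called. Of each pathway list, every called gene was named if 4 or fewer, otherwise the 4 with the smallest p, and for each of the 10 the 2 genes most like it, leaving out predicted gene models. Promoter sequences are from RefSeq (GRCm38.p6), with entries for 8 of the 10 genes, and Il10 and Gsdmd have none shown. One marker of the monocyte list is not reported here.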

Additional observations from a re-analysis of the deposited data

Results flagged for a closer look

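The response to IL-6 differed between HET and WT, by the edgeR test of the difference itself, for 2 of the 10 genes and for 10 of the 65 tested genes of the pathway lists, against 8.12% of all tested genes. Il1a was at -1.12 ± 0.20 (edgeR adjusted p = 0.00506) and Il1b at -1.16 ± 0.25 (edgeR adjusted p = 0.0232), HET minus WT on the log2 scale, as described above. The difference of Il6 was 3.47 ± 0.58 (edgeR adjusted p = 0.00272) and was called in all 16 alternatives, where it ran from 2.87 to 3.96. It rests on low levels, with 0.613 to 4.81 CPM over the 8 libraries.

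Of the other 9 genes, each lost its call without at least 1 library. Zfp36l1 was at 0.56 (edgeR adjusted p = 0.00944), lost without HET IL-6 number 2 or HET control number 1, and Mif at 0.66 (edgeR adjusted p = 0.0107), lost without the same libraries and at 0.24 with the offsets (edgeR adjusted p up to 0.203 and 0.213 over the alternatives). Ninj1 was at 0.52 (edgeR adjusted p = 0.0169), lost without either HET IL-6 library, HET control number 1 or WT IL-6 number 1, and at 0.25 with the offsets. Il16 was at 1.42 (edgeR adjusted p = 0.017), lost without HET IL-6 number 1, HET control number 1, WT IL-6 number 1 or WT control number 1. Card9 was at 0.62 (edgeR adjusted p = 0.0225), lost without any 1 of the HET libraries, WT IL-6 number 1 or WT control number 1. Adam17 was at -0.56 (edgeR adjusted p = 0.0295) and Panx1 at -0.50 (edgeR adjusted p = 0.0297), each lost without either HET IL-6 library, HET control number 1 or WT IL-6 number 1, and Adam17 also without WT control number 1. Zfp36 was at 0.75 (edgeR adjusted p = 0.0357), lost without any library other than HET control number 2, and was 0.50 without HET control number 1. It also failed by DESeq2 (DESeq2 adjusted p = 0.0917) and with the offsets (edgeR adjusted p = 0.143). Osm was at 0.87 (edgeR adjusted p = 0.0494), lost without HET IL-6 number 1, HET control number 1, WT IL-6 number 1, WT control number 1 or WT control number 2. Osm failed too by DESeq2 (DESeq2 adjusted p = 0.0919). The same held with RLE scaling, the replicate block and the offsets (edgeR adjusted p = 0.0518, 0.065 and 0.0799). The cause of these differences was not tested.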

How the results depend on the processing

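No result changed direction among those called: of 272 values of the 17 called results of the 10 genes, 204 kept their side of the threshold and 68 lost it, and of 528 values of the 33 results not called, 15 passed. The number of the 10 genes called changed as follows. For HET over WT after IL-6 (2 called) it was 1 with RLE scaling, 4 without the low-count filter, 0 without both HET number 2 libraries, 0 without both HET number 1 libraries, 1 with the replicate block, 0 with the GC and length offsets, and 0 to 3 without each library in turn. For HET over WT in control (2 called) the same settings gave 1, 3, 0, 1, 1 and 1, and 0 to 2 without each library. For the difference of the responses (2 called) it was 1 without both HET number 2 libraries, 1 with the offsets, and 1 to 2 without each library. For IL-6 in HET (5 called) it was 2 without both HET number 2 libraries, 3 without both HET number 1 libraries, 3 with the replicate block, and 2 to 5 without each library, and for IL-6 in WT (6 called) it was 4 to 7 without each library.

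Over all genes, HET over WT after IL-6 called 3021 genes, against 862 without both HET number 2 libraries, 1042 without both HET number 1 libraries and 1571 with the offsets, and HET over WT in control called 666, against 1078 without the filter, 203 and 79 without the HET number 2 or number 1 libraries and 339 with the replicate block. The difference called 1114, against 428 and 188 without those libraries, 506 with the block and 1754 with the offsets. IL-6 in HET called 2508, against 835 and 697 without those libraries. Without each library in turn the counts were 879 to 4000, 33 to 1304, 304 to 2123 and 1203 to 3061, and for IL-6 in WT (2515 called) 1577 to 3073. The cause was not tested, other than that leaving out libraries removes replicates, and a lone library was then taken to vary like the other groups.

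The replicate numbers were not treated as pairs: deviations of same-numbered libraries from their group means correlated at 0.144 in HET, -0.099 in WT, -0.06 in control and 0.018 with IL-6. For the IL-6 responses and their difference the replicate block was fitted within each genotype, which leaves 2 residual degrees of freedom. For HET over WT it was a separate fit with a block shared by all groups. With the block, Tnf and Il10 lost their calls for IL-6 in HET (edgeR adjusted p = 0.0742 and 0.0645). So did Il1a in control (edgeR adjusted p = 0.0693) and Gsdmd after IL-6 (edgeR adjusted p = 0.0768), both HET over WT. Of 80 group levels recomputed with other scalings, 5 moved by more than 1 SD, the largest by 1.7%.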
